A study of Mus musculus with 9 samples.

Results

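Keratins build the intermediate filaments of epithelial cells, and cornification genes build the tough protein layer with which stratified epithelia such as skin seal their surface. The 9 mouse genes described here are 6 keratins of simple epithelia (Krt7, Krt8, Krt18, Krt19, Krt20 and Krt23), 1 precursor of the cornified envelope (Sprr1a) and 2 transglutaminases (Tgm2 and Tgm3). They were matched by gene symbol, and all 9 were found among the 54491 rows of the table. They were chosen with their values in these libraries known, so their levels are a description and carry no test.

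RNA was sequenced from the colon of C57BL/6 mice that entered the study at 6 weeks of age, 45 mice in 3 groups of 15, with tissue taken on postnatal day 98. The control group gave libraries 1, 2 and 3. The group on a high-fat diet (HFD) gave libraries 1, 2 and 4, and mice fed likewise but also gavaged with Papillibacter cinnamivorans, a bacterium of the gut, gave libraries 1, 3 and 4. Gavage delivers a dose through a stomach tube, and in the labels only the last group has it, so the bacterium and the procedure cannot be told apart. The diet of the controls, the stretch of colon taken and whether each library is a separate mouse are not given in the labels. All p-values below therefore measure the spread between 3 libraries of a group, pooled over the 3 groups. The spread of the controls thus also enters the comparison of HFD with the bacterium against HFD.

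Keratin filaments form from pairs, each with 1 acidic type I chain and 1 basic or neutral type II chain. In the intestine Krt8 and Krt7 are the type II chains, and Krt18, Krt19, Krt20 and Krt23 are type I chains. Krt8 and Krt18 are the founding pair of simple epithelium, Krt19 is abundant in the crypt and surface epithelium, and Krt20 marks differentiated cells of the upper crypt and surface. Transglutaminases join proteins by bonds between glutamine and lysine side chains. Tgm2 is the widely expressed tissue enzyme, Tgm3 is best known from epidermis and hair follicle, and Sprr1a is a small proline-rich substrate of such enzymes that is also known as an injury-induced gene.

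The promoters of the 3 genes with the largest differences between groups are shown first. They come from RefSeq on build GRCm38.p6, whereas the expression values were made on GRCm39, and only the 250 bases before the start site are printed, on the gene's strand. Tgm3 lies on the + strand at chr2:130012090-130012339, Sprr1a on the - strand at chr3:92485882-92486131 and Krt20 on the - strand at chr11:99438154-99438403. Capitals mark matches, on either strand, to TATAAA (the TATA box), TGANTCA (the site of AP-1 factors), TTTATG (a CDX-type site) and CACCC (a site of Krüppel-like factors).
Tgm3: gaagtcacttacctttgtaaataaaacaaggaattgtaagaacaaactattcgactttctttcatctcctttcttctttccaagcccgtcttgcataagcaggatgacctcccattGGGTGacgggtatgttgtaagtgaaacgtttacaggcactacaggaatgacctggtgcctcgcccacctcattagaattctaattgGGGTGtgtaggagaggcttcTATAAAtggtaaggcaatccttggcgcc
Sprr1a: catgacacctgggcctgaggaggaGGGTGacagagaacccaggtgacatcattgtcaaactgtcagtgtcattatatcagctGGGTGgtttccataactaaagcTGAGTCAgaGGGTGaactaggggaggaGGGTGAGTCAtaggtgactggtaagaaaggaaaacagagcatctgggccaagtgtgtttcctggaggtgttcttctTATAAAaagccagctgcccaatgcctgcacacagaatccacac
Krt20: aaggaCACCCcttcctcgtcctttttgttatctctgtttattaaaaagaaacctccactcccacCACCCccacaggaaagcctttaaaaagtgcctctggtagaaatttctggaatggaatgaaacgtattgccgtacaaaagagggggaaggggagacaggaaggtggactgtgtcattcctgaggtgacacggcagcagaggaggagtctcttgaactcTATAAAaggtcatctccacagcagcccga

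In Tgm3 TATAAA began at position -28, and CACCC matched on the opposite strand at -134 and -48. In Sprr1a TATAAA began at -43, TGANTCA matched at -146 and -116, and CACCC matched on the opposite strand at -226, -168, -137 and -119. The last of these overlaps the TGANTCA match at -116. In Krt20 TATAAA began at -29, and CACCC matched at -245 and -186. None of the 3 held TTTATG in this window.

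A promoter of 300 bases, with 50 bases after the start, was found for 7 of the 9 genes and not for Krt19 or Tgm2. TATAAA was present in 4 of the 7 (Krt8, Krt20, Sprr1a and Tgm3), against 13.6% of 32851 promoters of the same length. TGANTCA was present in 1 of 7 (Sprr1a) against 7.81%. TTTATG was present in 1 of 7 (Krt23) against 11.9%, and CACCC in 6 of 7 (all but Krt23) against 57.5%. A match says only that these letters occur in the window.

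The values are FPKM, fragments scaled to transcript length and to the mapped fragments of the library. Levels can be compared between genes of a library, but their sum differs between libraries, so comparisons between libraries depend on the scale. Differences are on the log2(FPKM + 1) scale, which understates changes of genes with low values. Summed FPKM per library was 384487 to 454535 in control, 348690 to 352265 in HFD and 371286 to 449052 in HFD with the bacterium. It was thus lowest in HFD, and the scale cannot be told apart from the group there. The total depth is unknown, and relative depth read from low values ranged over 1.34-fold between libraries. Control library 1 stood apart. The summed FPKM of 8 smooth muscle markers was 6866 in it against 1305 to 3186 in the other 8 libraries. Values without it are given for the 9 genes and for the desmosome, epithelial, smooth muscle and mesothelium genes.

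Tgm3 had the largest difference between groups of the 9 genes. Its level was 16.9, 0.622 and 0.288 FPKM in control libraries 1, 2 and 3, it was 425, 293 and 378 FPKM in HFD libraries 1, 2 and 4, and it was 2.84, 4.72 and 0.055 FPKM in libraries 1, 3 and 4 of HFD with the bacterium. Every HFD library lay above every other library, and control 1 was the highest of the rest. The mean was 5.95 ± 9.52 FPKM in control (SD, n = 3), 365 ± 66.5 in HFD (n = 3) and 2.54 ± 2.35 in HFD with the bacterium (n = 3). HFD was thus 61.4-fold above control in mean FPKM, a log2 difference of 6.76 ± 1.23 (SE). Without control 1 the control mean was 0.455 FPKM and the fold 803, so the size of the fold rested on this 1 library and its direction did not. HFD with the bacterium was 144-fold below HFD in mean FPKM, with a log2 difference of -6.99 ± 0.75 (SE), and the fold was 253 without its library 3. Between HFD with the bacterium and control the libraries overlapped, and the log2 difference of -0.23 became 0.98 without control 1 and 0.49 without library 4 of HFD with the bacterium.

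Sprr1a and Krt20 had the opposite arrangement. Sprr1a stood at 84.3, 147 and 158 FPKM in the controls, at 3.84, 6.57 and 5.24 in HFD, and at 57.8, 36.9 and 48.9 in HFD with the bacterium. The 3 groups did not overlap, with HFD lowest and HFD with the bacterium in between. Means were 130 ± 39.6, 5.22 ± 1.37 and 47.8 ± 10.5 FPKM (SD, n = 3 each). HFD was 24.8-fold below control (log2 difference -4.37 ± 0.34, SE). Mice given the bacterium were 9.17-fold above HFD (2.97 ± 0.26) and 2.71-fold below control (-1.39 ± 0.34).

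Krt20, the keratin of the differentiated surface, stood at 748, 898 and 1062 FPKM in the controls, at 171, 209 and 172 in HFD, and at 617, 482 and 376 in HFD with the bacterium. Its 3 groups were again separate and in the same order. Means were 903 ± 157, 184 ± 21.8 and 492 ± 121 FPKM (SD, n = 3 each). HFD was 4.90-fold below control (log2 difference -2.28 ± 0.17, SE). With the bacterium the level was 2.67-fold above HFD (1.39 ± 0.23) and 1.84-fold below control (-0.89 ± 0.25). In bulk tissue, fewer cells of a type and less RNA per cell cannot be told apart.

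**Figure D1:**
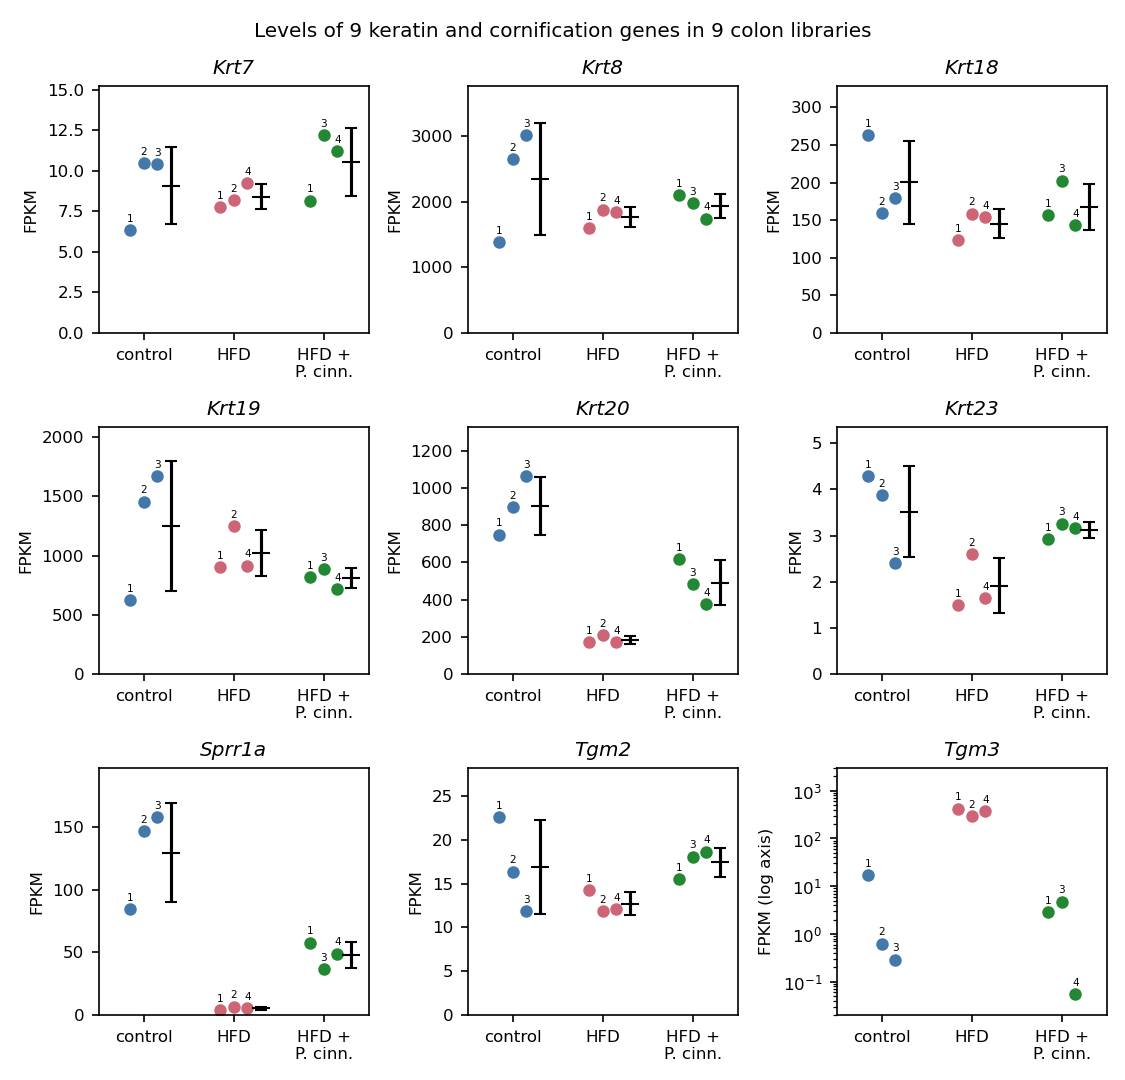
Level of each gene (y axis, FPKM; log axis for Tgm3 only) in each library (point, with its replicate number) of the 3 groups (x axis; HFD + P. cinn. is HFD with P. cinnamivorans); black bars are mean ± SD of 3 libraries, left out for Tgm3. Tgm3 was 293 to 425 FPKM in HFD and at most 16.9 FPKM elsewhere, whereas Krt20 and Sprr1a were lowest in HFD.

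The abundant pair of simple epithelium differed far less. Krt8, the most abundant of the 9 genes and ranked 13 by mean FPKM among 21878 protein-coding genes, was 1384, 2649 and 3014 FPKM in the controls, 1601, 1883 and 1843 in HFD, and 2106, 1976 and 1744 in HFD with the bacterium. All 3 groups overlapped, and control 1 had the lowest value of all and controls 2 and 3 the highest. HFD was 1.32-fold below control in mean FPKM, and 1.59-fold below without control 1, when the 2 groups no longer overlapped. A share of 26.9% of the 50-base windows of Krt8 also occurs in the pseudogene Krt8-ps, so its level is uncertain.

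Krt18, the type I partner of Krt8, was 263, 160 and 179 FPKM in the controls, 123, 159 and 154 in HFD, and 157, 203 and 143 in HFD with the bacterium. HFD lay below control without overlap only narrowly, since control 2 and HFD 2 were nearly equal, and HFD with the bacterium overlapped both. The mean in HFD was 1.38-fold below control. The ratio of Krt8 to Krt18 in FPKM was 5.27 in control 1 and 16.6 and 16.8 in controls 2 and 3. It was 12.3 ± 0.618 in HFD and 11.8 ± 1.87 in HFD with the bacterium (SD, n = 3 each), so control 1 alone had a ratio under 9.

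Krt19 was 625, 1454 and 1667 FPKM in the controls, 901, 1250 and 914 in HFD, and 817, 888 and 718 in HFD with the bacterium. HFD with the bacterium was 1.26-fold below HFD in mean FPKM and did not overlap it, while control spanned both. Without control 1, control lay above both other groups, 1.53-fold over HFD and 1.93-fold over HFD with the bacterium.

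Krt7, a type II chain of ducts and some glandular epithelia, was 6.34, 10.5 and 10.4 FPKM in the controls, 7.78, 8.20 and 9.25 in HFD, and 8.17, 12.2 and 11.2 in HFD with the bacterium. The groups overlapped in each comparison, and without control 1 HFD lay below control. Krt23, the least abundant of the 9 by the mean over all 9 libraries, was 4.28, 3.88 and 2.41 FPKM in the controls, 1.5, 2.6 and 1.64 in HFD, and 2.93, 3.26 and 3.16 in HFD with the bacterium. Its level in HFD with the bacterium was 1.63-fold above HFD without overlap, and both overlapped control.

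Tgm2, the tissue transglutaminase, was 22.6, 16.3 and 11.8 FPKM in the controls, 14.2, 11.9 and 12.1 in HFD, and 15.5, 18.1 and 18.6 in HFD with the bacterium. HFD with the bacterium was 1.37-fold above HFD without overlap, and control overlapped both. The 2 transglutaminases therefore changed places. Tgm2 made up 57.1%, 96.3% and 97.6% of the summed FPKM of both in control, 3.10% to 3.89% in HFD, and 79.3% to 99.7% in HFD with the bacterium.

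In HFD against control, 1 of the 9 genes was higher without overlap (Tgm3), 3 were lower (Krt18, Krt20 and Sprr1a) and 5 overlapped. Among all 17907 genes that reached 0.5 FPKM in 3 or more libraries, 21.9% were higher without overlap and 20.1% lower. In HFD with the bacterium against HFD, 4 were higher (Krt20, Krt23, Sprr1a and Tgm2), 2 were lower (Krt19 and Tgm3) and 3 overlapped, against 18.7% higher and 20.3% lower of all genes. In HFD with the bacterium against control, 0 were higher, 2 were lower (Krt20 and Sprr1a) and 7 overlapped, against 9.86% higher and 11.9% lower of all genes. The genes were chosen on these contrasts, so nothing is read from the counts. The HFD libraries enter both of the first comparisons and the control libraries enter the first and the third, so the differences are not independent of each other. Without control 1, HFD against control gave 1 gene higher and 6 lower (Krt7, Krt8, Krt18, Krt19, Krt20 and Sprr1a), and HFD with the bacterium against control gave 4 lower (Krt8, Krt19, Krt20 and Sprr1a). Groups separate more easily with 1 library fewer, and no share over all genes was counted without control 1. Nothing is read from these counts either.

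**Figure D2:**
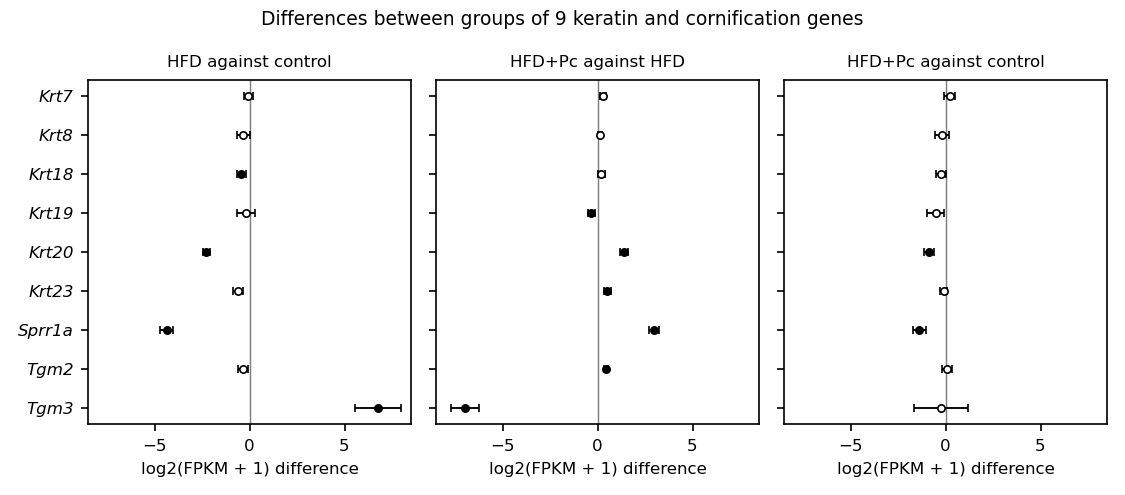
Difference in log2(FPKM + 1) between group means (x axis) for each gene (y axis) in the 3 comparisons (HFD+Pc is HFD with P. cinnamivorans), with bars of 1 SE from the SDs of 3 libraries in each group; filled points mark groups that do not overlap. Tgm3 at 6.76 and -6.99, Sprr1a at -4.37 and 2.97 and Krt20 at -2.28 and 1.39 lie farthest from 0 in the first 2 panels.

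The smaller differences depended on the scale. When each library was set relative to the mean log2 level of 12 epithelial genes, which moved the median of all genes in HFD against control by 0.32, the HFD-minus-control differences of Krt7, Krt8, Krt18, Krt19 and Tgm2 changed sign, to 0.33, 0.12, 0.01, 0.26 and 0.07. The differences of Krt20, Sprr1a and Tgm3 kept their sign, at -1.83, -3.94 and 6.99 for Krt20, Sprr1a and Tgm3 in that order. The difference of Krt20 between HFD with the bacterium and control was -0.45 on that scale, in place of -0.89. Among the 12 epithelial genes the HFD-minus-control differences ran from -2.30 (Cldn4) to 0.48 (Marveld3), with Vil1 at -0.88 and Cldn3 at -0.87. That scale therefore carries differences of its own between the groups. With TPM scaling, in which each library is rescaled to the same sum, the median of all genes moved by 0.22 and the 3 differences were -2.01, -4.25 and 7.52.

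The make-up of the keratin pool shifted within libraries, where the scale of the library cancels. Krt20 was 45.6%, 35.7% and 36.5% of the summed FPKM of the 4 type I keratins in control, 12.9% to 14.3% in HFD, and 38.7%, 30.6% and 30.3% in HFD with the bacterium. HFD lay below both other groups, which overlapped each other. Krt19 made up 73.6% to 77.1% in HFD, against 38.1% to 57.8% in control and 51.2% to 57.9% in HFD with the bacterium. Krt18 made up 6.15% to 16.0% of the pool over the 9 libraries and Krt23 at most 0.261%. The ratio of summed type I to summed type II keratin was 0.946 to 1.18 in control, 0.670 to 0.857 in HFD and 0.706 to 0.793 in HFD with the bacterium, so control lay above both other groups.

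**Figure D3:**
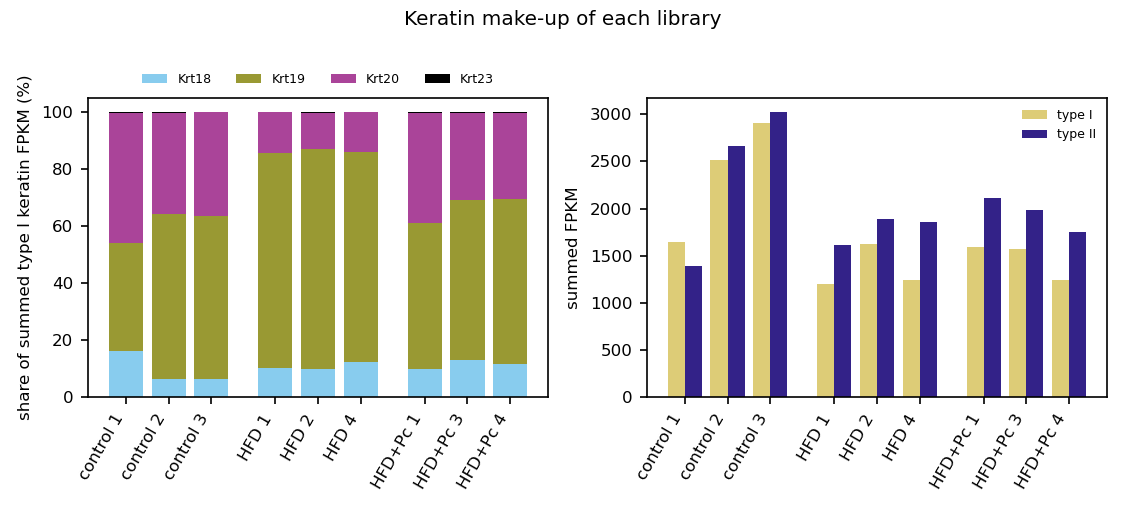
Left, share of each type I keratin in their summed FPKM (y axis, %) in each library (x axis; HFD+Pc is HFD with P. cinnamivorans); right, summed FPKM of type I (Krt18, Krt19, Krt20 and Krt23) and type II (Krt7 and Krt8) keratins. The share of Krt20 was 12.9% to 14.3% in HFD and 30.3% to 45.6% in the other 6 libraries.

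The order of levels differed between groups mainly through Tgm3 and Sprr1a. In control the order by mean FPKM was Krt8, Krt19, Krt20, Krt18, Sprr1a, Tgm2, Krt7, Tgm3 and Krt23, and the ranges of neighbours overlapped between Krt8 and Krt19, Krt19 and Krt20, Krt7 and Tgm3, and Tgm3 and Krt23. In HFD it was Krt8, Krt19, Tgm3, Krt20, Krt18, Tgm2, Krt7, Sprr1a and Krt23, with no neighbours overlapping. In HFD with the bacterium it was Krt8, Krt19, Krt20, Krt18, Sprr1a, Tgm2, Krt7, Krt23 and Tgm3, where only Krt23 and Tgm3 overlapped. Tgm3 thus stood in the third place in HFD and in the last or next to last place elsewhere.

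Other genes of these families were taken from 4 lists by role: other keratins, other transglutaminases, other cornified envelope precursors, and desmosome and keratin-anchoring genes. Of their 130 genes in the table, 87 stayed under 0.5 FPKM in every library, 43 of them at 0, and 34 could be tested with limma across all genes (Benjamini-Hochberg adjustment, called at adjusted p below 0.05). In HFD against control 4 of the 34 rose and 8 fell, beside 10.6% of all genes called higher and 9.11% called lower. Of the 4, 3 (Krt36, Casp14 and Csta1) reached 0.5 FPKM only in HFD, so their calls are not independent of the filter. The median log2 difference of the 34 was -0.27, beside -0.00 over all genes. In HFD with the bacterium against HFD 2 rose and 5 fell, beside 4.54% and 7.6% of all genes, with a median of 0.05 beside -0.01. The same 3 genes were among the 5. In HFD with the bacterium against control limma called 0 of 34, with 7 at an unadjusted p below 0.05, beside 0.262% and 0.843% of all genes, and the median was -0.17 beside -0.01. Without any 1 HFD library 4 genes were called in HFD against control and 2 in HFD with the bacterium against HFD, and 3 of the called genes cannot be tested then because they reached 0.5 FPKM only in HFD. Without control 2 the first count was 7. Without control 1 the 3 counts were 17, 11 and 6 of 33, beside 4527, 3603 and 1187 calls over all 17624 genes tested then. With all libraries the calls over all 17907 genes were 3535, 2174 and 198. The split of higher and lower calls in HFD against control was 7 and 5 with TPM scaling, of 48 tested, and 7 and 3 relative to the epithelial genes. With the bacterium against HFD it was 3 and 4 with quantile normalization.

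Of 48 other keratins, 35 stayed under 0.5 FPKM in every library and 8 were tested. Krt12, a keratin best known from cornea, fell in HFD from 1.45 ± 0.404 to 0.128 ± 0.0909 FPKM (SD, n = 3 each; limma log2 difference -1.11, adjusted p = 0.0026). The limma log2 difference of Krt222 in HFD against control was -0.67 (adjusted p = 0.047). That of Krt36 was 0.65, and it was -0.64 with the bacterium against HFD. Krt36 and Krt222 were named after their values were seen. Krt36 reached 0.5 FPKM only in HFD libraries, so its calls are not independent of the filter and no p-value is given. Krt36 also lost its rise without control 2 and its fall without library 1 or library 4 of HFD with the bacterium. Krt222 lost its call under 6 of the 9 leave-outs. Of 7 other transglutaminases only F13a1, the coagulation factor XIII subunit, was tested, and its limma log2 difference in HFD against control was 0.49 (adjusted p = 0.13). Tgm1, the main enzyme of epidermal cornification, was too low to test, at 0.320 to 0.441 FPKM in HFD and at most 0.313 FPKM elsewhere.

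Among 53 other envelope precursors 41 stayed under 0.5 FPKM and 9 were tested, of which 2 rose and 1 fell in HFD. Casp14, the caspase of terminal keratinocyte differentiation, was listed at 0 in all 6 libraries outside HFD and at 18.1, 19.4 and 19.3 FPKM in HFD libraries 1, 2 and 4. Csta1, a cysteine protease inhibitor, was 0.747 to 1.20 FPKM in HFD and at most 0.142 FPKM elsewhere. Casp14 and Csta1 were the 2 that rose, and both were also called lower with the bacterium against HFD. They passed the filter through HFD alone, so their calls are not independent of the filter and no p-value is given. Asprv1, an epidermal protease of filaggrin processing, fell in HFD from 1.17 to 0.284 FPKM in the means (limma adjusted p = 0.019), a call lost without any 1 HFD library. Csta1 and Asprv1 were named after their values were seen.

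The Sprr2a genes are relatives of Sprr1a. Sprr2a1 was 480 to 871 FPKM in HFD, 503 to 662 in control and 231 to 476 in HFD with the bacterium. In the same order Sprr2a2 was 201 to 453, 269 to 454 and 102 to 354 FPKM, and Sprr2a3 was 309 to 390, 136 to 222 and 63.9 to 215 FPKM. None of the 3 passed the test in HFD against control (limma adjusted p = 0.82, 0.94 and 0.12), and the HFD and control ranges overlapped for Sprr2a1 and Sprr2a2. Sprr2a1 and Sprr2a2 were named after their values were seen. Sprr2a3 fell with the bacterium against HFD (limma log2 difference -1.48, adjusted p = 0.041), a call lost under 7 of the 9 leave-outs. Shares of 96.3%, 96.5% and 61.1% of the 50-base windows of Sprr2a1, Sprr2a2 and Sprr2a3 occur in other genes, so their values are uncertain, whereas Sprr1a, Krt19, Krt20, Krt23, Tgm2 and Tgm3 share none. Ivl, Sprr1b and Sprr3, defining envelope genes of skin and squamous linings, were listed at 0 in every library. Lor, another envelope precursor, was low but not absent, at 0 to 0.322 FPKM over the 9 libraries.

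Among 22 genes of desmosomes, the junctions to which keratin filaments attach, and of other anchors, 16 were tested, with 1 higher and 5 lower in HFD. Pkp1, a plakophilin typical of stratified epithelium, rose in HFD from 3.79 to 8.55 FPKM in the means (limma log2 difference 1.01, adjusted p = 0.02), and fell with the bacterium (-1.33, adjusted p = 0.0078). Its rise was lost under 4 of the leave-outs. Pkp3, a plakophilin of simple and stratified epithelia, fell in HFD by 0.84 (limma adjusted p = 0.008). Plec, which links filaments to adhesion sites, fell by 0.84 (adjusted p = 0.0015), and Pkp4 fell by 0.66 (adjusted p = 0.0041). The other two were Pkp2 and Dst, at -0.44 and -0.46 (limma adjusted p = 0.023 and 0.046), which lost their calls under 5 and 8 of the leave-outs, and Dst was named after its values were seen. Pkp2, Pkp4, Plec and Dst lost their fall relative to the epithelial genes, and Pkp2, Pkp4 and Dst with TPM scaling. Pkp2 and Pkp4 rose with the bacterium against HFD by 0.44 and 0.71 (limma adjusted p = 0.032 and 0.0035), and Pkp2 lost that call under 6 of the leave-outs, with TPM scaling and relative to the epithelial genes. Dsp, Jup and Dsg2, the core of the desmosome, did not pass the test in any comparison with all 9 libraries. This rested on control 1 in HFD against control and, for Dsp and Jup, in HFD with the bacterium against control. With the bacterium against HFD none of them passed without control 1 either. Dsp was 30.4, 69.3 and 81.1 FPKM in the controls, 31.9 to 34.4 in HFD, and 26.9 to 43.8 in HFD with the bacterium. Without control 1 all 3 fell in HFD against control, by 1.15, 0.82 and 0.90 in the order named (limma adjusted p = 0.004, 0.0079 and 0.0055). Dsp and Jup then also fell in HFD with the bacterium against control, by 1.08 and 0.86 (adjusted p = 0.027 and 0.028). Over the 16 tested genes, leaving out control 1 gave 1 higher and 10 lower in HFD against control, and 0 higher and 6 lower in HFD with the bacterium against control. Over all 17624 genes tested then, 4527 were called in the first (2144 of them higher) and 1187 in the second (321 higher).

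**Figure D4:**
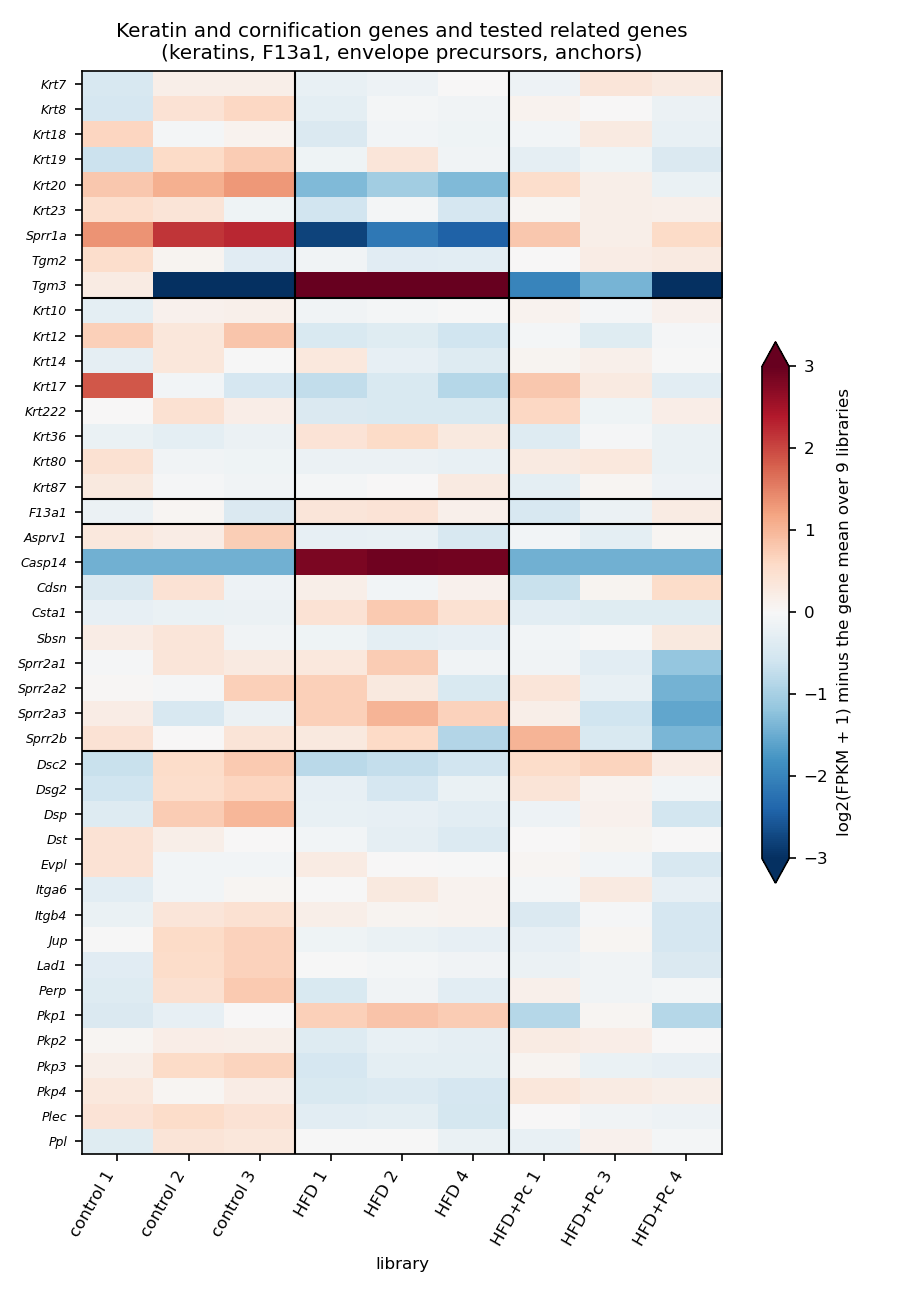
Colour shows log2(FPKM + 1) minus the gene's mean over 9 libraries, clipped at -3 and 3, for the 9 genes (top block) and the 34 tested related genes (rows) in each library (columns; HFD+Pc is HFD with P. cinnamivorans). Tgm3 and Casp14 are red in the 3 HFD libraries, and Sprr1a and Krt20 are blue there.

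Markers of other cell types were read beside these results. Of 22 squamous epithelium markers, 11 stayed under 0.5 FPKM in every library. Of the 6 defining ones, Krt5, Krt13, Krt1 and Trp63 stayed at or below 0.214, 0.187, 0.266 and 0.0472 FPKM, Krt14 was 0.325 to 1.16 and Krt10 1.31 to 2.09 FPKM. The HFD and control ranges overlapped for Krt14 and Krt10 (limma adjusted p = 0.72 and 0.81). The summed level of the 22 was 174 to 204 FPKM in control, 93.5 to 134 in HFD and 87.5 to 117 in HFD with the bacterium. Its largest part in every library was Sfn, at 135 to 164 FPKM in control, 39.4 to 69.9 in HFD and 48.3 to 71.4 with the bacterium. The sum therefore does not speak for the 22 as a set. Of the 8 tested, Ly6d rose in HFD and fell with the bacterium, and Sfn and Dmkn fell in HFD (limma adjusted p = 0.00024, 0.00015, 0.0031 and 0.021). Dmkn lost its call under 4 of the leave-outs. Among those too low to test, Krt16, a keratin of stressed stratified epithelium, was listed at 0 in all 6 libraries outside HFD and was 0.409, 0.748 and 0.219 FPKM in HFD. Col17a1, a collagen of hemidesmosomes, was 0.095 to 0.139 FPKM in HFD and at most 0.0568 FPKM elsewhere. Dsg3, another marker too low to test, went the other way, with at most 0.0818 FPKM in HFD and 0.129 to 0.482 FPKM elsewhere. Krt16, Col17a1 and Dsg3 were named after their values were seen. The part of squamous cells in the differences of Tgm3 and Sprr1a was not tested.

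Epithelial markers were abundant in every library, with Epcam at 419 to 1029 and Cdh1 at 127 to 254 FPKM. Of 12 such genes, 1 rose in HFD (Marveld3) and 3 fell (Cldn4, Vil1 and Cldn3), beside 10.6% and 9.11% of all genes. With the bacterium against HFD Cldn4 rose, beside 4.54% of all genes. Marveld3 lost its call under 6 of the leave-outs, Cldn3 under 5 and Vil1 under 1, that of HFD library 4. The rise of Cldn4 with the bacterium was lost under 3. Without control 1, 0 of the 12 rose and 5 fell in HFD against control, and 5 fell in HFD with the bacterium against control, where limma had called 0 with all libraries. The calls over all genes were then 4527 and 1187 of 17624, in place of 3535 and 198 of 17907. The summed level was 3275 to 5258 FPKM in control, 2890 to 3221 in HFD and 2731 to 3311 in HFD with the bacterium. Of 11 surface colonocyte genes, 5 fell in HFD (Car1, Emp1, Guca2a, Ceacam1 and Slc9a3), beside 9.11% of all genes. Car1, Emp1, Guca2a, Ceacam1 and Slc9a3 rose with the bacterium, while Slc26a3 fell, beside 4.54% higher and 7.6% lower of all genes. Leaving out HFD library 2 ended the rise of Ceacam1 and, like leaving out the other two HFD libraries, the fall of Slc26a3. Ceacam1 and Slc9a3 were named after their values were seen. The summed level was 11517 to 33907 FPKM in control, 9446 to 10171 in HFD and 18707 to 22587 in HFD with the bacterium. Emp1 was 11.2 to 12.7 FPKM in HFD, 211 to 532 in control and 195 to 255 in HFD with the bacterium (limma adjusted p = 4.7e-05 and 0.0001). In controls 1, 2 and 3 Car1 was 603, 13019 and 19172 FPKM, against 56.0 to 118 FPKM in HFD. These 5 genes were thus low in the libraries in which Krt20 and Sprr1a were low, while the other surface genes were not called in HFD against control, and the median log2 difference of the 11 was -0.44 in HFD against control and -0.43 with the bacterium against HFD. Their part in the differences of Krt20 and Sprr1a was not tested.

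Hoxd13 and Hoxb13, homeobox genes of the posterior body and hindgut, moved with Tgm3. Hoxd13 was 86.0, 94.3 and 72.6 FPKM in HFD and at most 0.45 FPKM elsewhere. It passed the filter through HFD alone, so its calls are not independent of the filter and no p-value is given. Hoxb13 was 118, 128 and 134 FPKM in HFD, 7.73, 0.0598 and 0.0898 in the controls, and 0.227, 2.15 and 0.0516 in HFD with the bacterium (limma adjusted p = 0.0013 and 0.0011). Control 1, the highest in Tgm3 outside HFD, was also the highest there in Hoxb13. Cdx2, the homeobox gene of intestinal identity, was 73.2, 121 and 141 FPKM in the controls, 8.18, 6.66 and 9.45 in HFD, and 72.0, 80.3 and 54.3 in HFD with the bacterium (limma log2 difference -3.59, adjusted p = 7.9e-05, and 2.93, adjusted p = 0.00023). The part of these homeobox genes, or of the stretch of colon taken, in the differences of Tgm3, Krt20 and Sprr1a was not tested.

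Of the 16 tested regulators of keratin and squamous genes, 2 rose in HFD (Ehf and Grhl2) and 3 fell (Cdx2, Ovol1 and Grhl1). Over all genes 10.6% were called higher and 9.11% lower there. With the bacterium against HFD Cdx2 rose and Ovol2 fell, beside 4.54% and 7.6% of all genes. With the bacterium against control Klf4 fell, beside 0.843% of all genes. Klf4, a factor of terminal epithelial differentiation, was 169 to 223 FPKM in control, 119 to 143 in HFD and 62.3 to 101 in HFD with the bacterium (limma adjusted p = 0.06 for HFD against control and 0.037 for the bacterium against control), and the second was lost under 7 of the 9 leave-outs. Grhl1 was named after its values were seen. The calls were lost under 6 of the 9 leave-outs for Ovol1 and for Ovol2, 5 for Ehf and for Grhl1, and 4 for Grhl2.

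Macrophage markers also separated HFD from the other groups. Of 8, 7 rose in HFD and 7 fell with the bacterium, beside 10.6% of all genes called higher and 7.6% called lower in these comparisons. The 8 summed to 588 to 633 FPKM in HFD, 205 to 256 in control and 163 to 247 in HFD with the bacterium. Their part in the differences of the 9 genes was not tested. The summed level of the 8 smooth muscle markers was 1328 to 6866 FPKM in control, 1305 to 1462 in HFD and 1757 to 3186 in HFD with the bacterium, so the last 2 groups did not overlap. Of these 8 and of the 5 tested mesothelium markers, limma called 0 in each comparison, with 0 of 8 at an unadjusted p below 0.05 for smooth muscle and at most 1 of 5 for mesothelium. Without control 1, 1 of the 8 (Actg2, limma log2 difference 1.17, adjusted p = 0.028) and 1 of the 5 (Upk1b, 1.02, adjusted p = 0.04) were higher with the bacterium against HFD, and 4 of the 8 were at an unadjusted p below 0.05. Control 1 is in neither of these groups, so the differences stayed the same and the pooled spread changed. Over all genes the calls in this comparison were then 3603, in place of 2174. Actg2 and Upk1b were named after their values were seen, and the part of muscle in the differences of the 9 genes was not tested.

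For each of the 9 genes the genes with the most similar pattern over the 9 libraries were sought among 13187 genes, by the root mean square difference of centred log2(FPKM + 1) values. For Tgm3 they were Hoxb13 (0.59), Ly6g (0.73) and Sval1 (0.74), whereas the root mean square deviation of Tgm3 itself was 3.45. For Sprr1a they were Mal (0.42), Gm33424 (0.44) and Cdx2 (0.49), with 1.85 for Sprr1a itself. For Krt20 they were Pdlim2, Sdcbp2 and Tubb2a (0.18, 0.18 and 0.20), with 0.96 for Krt20 itself. Mal, for example, was 21.4, 49.2 and 86.0 FPKM in control and at most 1.69 FPKM in HFD, while Sval1 was 669 to 1029 FPKM in HFD and at most 16.0 FPKM elsewhere. The other 6 genes varied little, with root mean square deviations of 0.25 to 0.44. Their closest genes were Atpaf1 for Krt7 (0.09), Fdx1 for Krt8 (0.06), Amigo3 for Krt18 (0.11), Atp5g3 for Krt19 (0.14), Abcb9 for Krt23 (0.13) and Dagla for Tgm2 (0.09). These are descriptions over 9 libraries, which share their groups.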

How the data were processed

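RNA-seq of mouse colon was analysed in 9 libraries, 3 per group, with groups from the treatment labels and replicate numbers from the titles. The authors deposited 1 table of FPKM values, 54491 rows. Per the submitters' processing notes, the aligner was HISAT2 2.0.5 and the build GRCm39. For the counting tool and the annotation, nothing was given in the sources used here. Symbols were matched for 52093 identifiers, and 22310 rows were 0 in every library. Low values gave relative depth, since 97.4% to 98.3% of the low genes stood in whole-number ratios to control 1 (whole numbers up to 20, tolerance 0.0005 on the natural log); total depth is unknown.

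Tests used limma 3.58.1 (R 4.3.3), fitted without covariates to log2(FPKM + 1) of all 9 libraries together, with a mean-variance trend. A gene was tested if it reached 0.5 FPKM in 3 or more libraries (17907 genes), with Benjamini-Hochberg adjustment within each of 3 comparisons and calls at adjusted p below 0.05. The fit was tested on simulated data. The 9 genes and all gene lists were chosen with earlier results of these data known. Named are the 9 genes, up to 3 called genes per list, comparison and direction with the largest difference and a mean of at least 1 FPKM, and a set of family, regulator and marker genes; others are stated as named after their values were seen. Shared 50-base windows were counted on GENCODE M21 transcripts, and promoters are RefSeq's on GRCm38.p6. Alternatives were a pseudocount of 0.1, 2 other filters, 3 other scalings, no trend, array weights, only the groups compared, a replicate block and leaving out each library.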

Additional observations from a re-analysis of the deposited data

How the results depend on the processing

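Of 513 values of the 9 genes under alternatives, 503 moved by less than the larger SD of the 2 groups compared, and 10 moved further. Many could not move. The other filters, no trend, only the 2 groups compared and leaving out a library of the third group do not change a difference. The SD of Tgm3 in control is also wide, so 503 is no measure of robustness. Of the 513 values the sign changed in 29, over 13 of 27 differences between groups. None was of Krt20 or Sprr1a, and for Tgm3 only in HFD with the bacterium against control. Of the 9 genes, 4 did not overlap in HFD against control and 7 did not without control 1, with a range of 4 to 7 over leave-outs. For HFD with the bacterium against control the count of 2 became 4 without control 1, with a range of 2 to 4. Groups of fewer libraries separate more easily, and no shares over all genes were counted for the leave-outs. Nothing is read from these counts.

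Over all genes, HFD against control gave 3535 calls, 7934 with array weights, 1985 with the replicate block and 1612 to 4527 over leave-outs. HFD with the bacterium against HFD gave 2174, 4626 with array weights, 3316 with only the 2 groups, 1288 with the replicate block and 991 to 3603 over leave-outs. HFD with the bacterium against control gave 198, and 11 with TPM scaling, 2393 with array weights, 302 with the filter at 1 FPKM, 15 with no filter, 10 with only the 2 groups, 1196 relative to the epithelial genes, 46 with quantile normalization, 0 with the replicate block and 0 to 1187 over leave-outs, the last without control 1. The higher share of calls in HFD against control was 53.8%, 78.2% with TPM scaling and 87.7% relative to the epithelial genes. In the second comparison it was 37.4%, and 25.0% with TPM scaling. In the third it was 23.7%, and 94.6% relative to the epithelial genes.

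Of the 34 related genes, 12 were called in HFD against control, 21 with array weights, 6 with the replicate block and 4 to 17 over leave-outs. In the second comparison 7 were called, 4 with the replicate block and 2 to 11 over leave-outs. In the third 0 were called, 6 with array weights and 0 to 6 over leave-outs. The causes were not tested, apart from genes reaching the filter only in HFD. Array weights are those of the gene-by-gene method, chosen after the default method had stopped before it converged. No clear pairing by replicate number was seen. Same-numbered libraries correlated between -0.16 and 0.19 in their deviations from the group means, and differently numbered ones between -0.17 and 0.15. With 3 libraries per group these values cannot decide whether libraries were paired.

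Total depth is unknown, so no interval from counting can be given, and precision is limited by 3 libraries per group.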

Other observations

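Genes of repair and fetal-like epithelium were also read, next to the keratins and cornification genes. Of 18 tested, which include the squamous marker Ly6d, 7 rose in HFD against control and 1 fell, with a median log2 difference of 0.36. Over all genes 10.6% were called higher and 9.11% lower there. With the bacterium against HFD 1 of the 18 rose and 5 fell, with a median of -0.40, beside 4.54% and 7.6% of all genes. Ly6a, a surface protein of regenerating colon epithelium and of some immune and stromal cells, was 893 to 1348 FPKM in HFD, 155 to 327 in control and 208 to 267 in HFD with the bacterium (limma adjusted p = 0.0011 and 0.002). Clu, a secreted chaperone, was 64.7 to 77.0 FPKM in HFD and at most 20.2 FPKM elsewhere (limma adjusted p = 0.0013 and 0.0011). Plaur, the urokinase receptor, fell in HFD (limma log2 difference -1.29, adjusted p = 0.0031), as Sprr1a was lower there. Cd44, a hyaluronan receptor, was 20.7 to 26.2 FPKM in HFD with the bacterium and 10.5 to 11.6 FPKM in HFD (limma adjusted p = 0.0014).

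Of 10 crypt base and cycling genes, limma called only Ascl2, a factor of crypt base stem cells, which rose in HFD and fell with the bacterium (log2 differences 1.38 and -1.40, adjusted p = 0.015 and 0.019). Both calls were lost without HFD library 2 or 4, and the second also without library 1 of HFD with the bacterium. Of 8 fibroblast genes only Pi16 was called, higher in HFD and lower with the bacterium, and it was named after its values were seen. Pi16 reached 0.5 FPKM only in HFD, so its calls are not independent of the filter and no p-value is given. Of 8 endothelial genes only Pecam1 was called, lower with the bacterium against HFD (limma adjusted p = 0.03), a call lost under 5 of the leave-outs.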
